A study of Mus musculus with 6 samples.

Results

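Microglia exposed to lipopolysaccharide (LPS) for 6 h in culture were compared with microglia kept in phosphate-buffered saline (PBS) for 24 h. The arrays were chosen by their titles, and 4 of the 6 arrays of the series belong to the comparison: 1 LPS 6 h array and 1 PBS 24 h array from LRRK2KO cells, and the same from Ntg cells. The LRRK2KO cells carried a knockout of Lrrk2, the gene of a large kinase and GTPase of the endolysosomal system, and their labelled strain is B6.129X1(FVB)-Lrrk2tm1.1Cai/J. The labelled strain of the Ntg cells is C57BL/6. All cells are labelled as microglia from brain at age P3, and all were treated in vitro. The remaining arrays, 1 per genotype after 24 h of LPS, shared the fit and gave the levels at the later time. PBS was sampled at 24 h and not at 6 h, so the effect of LPS and that of the time in culture cannot be told apart in any value below. The genotypes also differ in strain, and the labels do not tell whether each array is a culture or an animal of its own, so a p-value here measures no more than the spread among these 6 arrays, possibly a technical one.

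LPS is the outer-membrane glycolipid of Gram-negative bacteria. On macrophages it is passed by CD14 to the receptor TLR4 with its partner MD-2, and the adaptors MyD88 and TRIF carry the signal to NF-kB, to MAP kinases with AP-1, and to IRF3, which switches on interferon-beta. Secreted interferon and cytokines then start a second wave of genes through STAT and IRF factors. In microglia, the resident macrophages of brain parenchyma, this response is known for cytokine secretion and for the loss of surveillance genes, and it is held in check by phosphatases, SOCS proteins and enzymes that destroy cytokine messages.

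Between 13126 and 15049 of the 45281 probes were detected on each array (29.0% to 33.2%, detection p under 0.01), and 8598 genes had a detected probe on at least 2 arrays. A gene undetected in PBS passed this filter only if detected after LPS, so the share of rises in a list depends in part on the filter. Levels are normalized log2 intensities and changes are LPS 6 h minus PBS 24 h on the log2 scale, adjusted for genotype, from 2 arrays per arm. Their standard error rests on the spread of all 6 arrays around the fit, moderated across genes, and not on replicates within an arm. The lowest detected signal lay between 4.91 and 5.31 on the 6 arrays, and a gene undetected on both arrays of its dimmer arm has only a bound. Where 1 array of that arm detected the gene, the change is given in full, as for Zdhhc14, Nuak1, Mmp3, Upp1 and Pparg. The size of such a change is uncertain, since the other array of the arm did not detect the gene. The 6 probes of Lrrk2 had intensities of 84.7 to 133, and 1 of their 36 values passed detection, so the arrays do not check the knockout label. Of 14 microglia and macrophage markers on the array, 12 were detected on all 6 arrays. P2ry12, a defining receptor of microglia in brain, was detected on 0 arrays, and Tmem119, another defining gene, on 5 at low intensity. No marker of neurons or lymphocytes passed the filter.

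The promoters of the genes with the largest changes are shown first, since they are the sequences in front of the genes on which the comparison turns. Each is the RefSeq window from 250 bases before to 50 bases after the listed start (GRCm38.p6), printed 5′ to 3′ on the gene's strand. Capitals mark matches, on either strand, to the NF-kB consensus (called kappaB), the AP-1 motif TGANTCA, the TATA motif TATAAA, the CHR motif TTTGAA, the CCAAT box, and the GC box GGGCGG. Il1a (chr2:129309923-129310222, minus strand), the gene of the cytokine interleukin-1 alpha, had a TATA motif from -32 to -27 and an AP-1 motif from -12 to -6, counted with the listed start as 0, and a CCAAT box downstream of the start. Sprr2d (chr3:92338890-92339189, plus strand), a gene of a small proline-rich protein of the epidermal barrier, had an AP-1 motif from -193 to -187 and a TATA motif from -29 to -24 that shares 1 base with a CCAAT box. In Mmp3 (chr9:7445572-7445871, plus strand), which encodes the matrix protease stromelysin, an AP-1 motif lay from -46 to -40. Cxcl1 (chr5:90890995-90891294, plus strand), a gene of a chemokine for neutrophils, carried 2 overlapping kappaB matches between -71 and -61 and none of the other motifs.
Il1a: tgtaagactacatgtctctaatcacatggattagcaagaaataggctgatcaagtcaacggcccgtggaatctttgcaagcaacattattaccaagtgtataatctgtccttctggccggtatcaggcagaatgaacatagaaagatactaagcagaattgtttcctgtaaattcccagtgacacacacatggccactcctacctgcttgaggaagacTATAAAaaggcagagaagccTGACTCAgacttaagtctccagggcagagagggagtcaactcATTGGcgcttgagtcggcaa
Sprr2d: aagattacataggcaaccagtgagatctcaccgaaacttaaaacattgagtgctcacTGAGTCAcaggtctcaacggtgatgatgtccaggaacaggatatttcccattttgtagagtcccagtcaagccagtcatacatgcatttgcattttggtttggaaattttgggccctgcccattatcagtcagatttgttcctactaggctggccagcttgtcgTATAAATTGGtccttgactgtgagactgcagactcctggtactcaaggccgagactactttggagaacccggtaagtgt
Mmp3: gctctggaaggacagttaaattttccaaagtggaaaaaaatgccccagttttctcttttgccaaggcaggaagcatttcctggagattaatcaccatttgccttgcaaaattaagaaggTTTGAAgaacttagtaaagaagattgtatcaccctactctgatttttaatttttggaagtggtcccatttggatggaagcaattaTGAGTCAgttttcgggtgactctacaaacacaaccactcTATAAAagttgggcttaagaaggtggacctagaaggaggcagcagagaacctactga
Cxcl1: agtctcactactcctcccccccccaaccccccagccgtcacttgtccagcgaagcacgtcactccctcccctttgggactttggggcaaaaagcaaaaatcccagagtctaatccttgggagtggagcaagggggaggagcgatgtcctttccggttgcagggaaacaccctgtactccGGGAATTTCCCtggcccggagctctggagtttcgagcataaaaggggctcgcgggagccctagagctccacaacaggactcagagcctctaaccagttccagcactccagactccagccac

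The start regions of the largest falls are given for comparison. Sesn1 (chr10:41810324-41810623, plus strand) encodes sestrin 1, a stress protein that restrains the growth kinase mTORC1, and its window held 4 GC boxes and 1 CCAAT box. Tk1 (chr11:117825965-117826264, minus strand), the gene of the S-phase thymidine kinase, held 1 GC box. Rab3il1 (chr19:10017944-10018243, plus strand), the gene of an exchange factor for Rab GTPases, held 4 GC boxes. Slc46a3 (chr5:147894766-147895065, minus strand), the gene of a lysosomal transporter, held 3 CCAAT boxes and 1 GC box.
Sesn1: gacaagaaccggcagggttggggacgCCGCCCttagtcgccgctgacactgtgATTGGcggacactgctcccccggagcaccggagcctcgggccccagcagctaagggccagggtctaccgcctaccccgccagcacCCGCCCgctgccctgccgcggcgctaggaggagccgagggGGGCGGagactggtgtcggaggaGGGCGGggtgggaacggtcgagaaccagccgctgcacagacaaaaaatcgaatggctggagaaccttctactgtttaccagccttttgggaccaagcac
Tk1: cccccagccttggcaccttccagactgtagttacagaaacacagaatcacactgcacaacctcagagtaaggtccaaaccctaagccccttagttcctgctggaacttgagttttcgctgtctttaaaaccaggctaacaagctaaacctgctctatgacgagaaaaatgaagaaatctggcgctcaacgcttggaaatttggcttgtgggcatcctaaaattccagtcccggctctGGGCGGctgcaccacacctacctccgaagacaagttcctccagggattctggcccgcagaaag
Rab3il1: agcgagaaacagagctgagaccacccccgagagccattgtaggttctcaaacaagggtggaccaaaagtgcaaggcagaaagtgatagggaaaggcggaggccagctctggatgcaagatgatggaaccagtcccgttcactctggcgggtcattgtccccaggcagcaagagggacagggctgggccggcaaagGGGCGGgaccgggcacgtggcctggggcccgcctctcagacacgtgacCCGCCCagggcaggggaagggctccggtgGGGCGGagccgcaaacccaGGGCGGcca
Slc46a3: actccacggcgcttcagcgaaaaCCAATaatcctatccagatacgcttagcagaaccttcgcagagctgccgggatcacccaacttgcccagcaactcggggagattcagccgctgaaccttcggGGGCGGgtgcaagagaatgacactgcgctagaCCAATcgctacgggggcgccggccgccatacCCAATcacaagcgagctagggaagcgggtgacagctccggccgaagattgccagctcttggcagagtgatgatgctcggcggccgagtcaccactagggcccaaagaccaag

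Among the 25 largest rises, 20 had a promoter in the RefSeq table, and among the 25 largest falls 19 had one. The AP-1 motif was in 11 of the 20 rise promoters and in 1 of the 19 fall promoters, against 5.08% of the 7068 promoters of tested genes and 7.93% of all 27025 promoters. A TATA motif was in 9 of the rise promoters and 4 of the fall promoters, against 7.29% of those of tested genes. The kappaB consensus was in 5 and 0 of them, against 9.96%, and the core of the interferon-stimulated response element in 6 and 0, against 3.34%. GC boxes were in 3 rise promoters and 12 fall promoters (63.2%), against 66.2% of those of tested genes, a share that the falls did not exceed, and CCAAT boxes were in 9 and 13, against 38.8%. Sprr2d and Sprr2e are near-identical copies that hold the same motifs, and 3 of the genes that fell, H2ac15, H2ac12 and H2ac22, belong to 1 histone family and hold 3 of the 4 TATA matches among the falls, so these promoters are not independent of each other. A match says only that these letters occur in the window.

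After 6 h of LPS 1357 of the 8598 genes were higher than in PBS (15.8% of genes, limma adjusted p under 0.05) and 2256 were lower (26.2%), together 42.0%. At the unadjusted level 4424 genes had p under 0.05. Among genes called, at least 2-fold changed in both genotypes and detected on both arrays of the higher arm, from which the largest rises and falls above were taken, 508 were higher (5.91% of genes) and 641 lower (7.46%). The measured rises were the larger changes: 84 genes rose and 28 fell by at least 8-fold, although 673 rose and 931 fell by at least 2-fold. The detection floor limits falls more often: 380 called falls had a probe undetected on both LPS 6 h arrays, and 96 called rises on both PBS arrays. The sizes of such changes are cut off, so the 8-fold counts do not compare rises and falls evenly. The counts were 790 higher and 1025 lower without the Ntg PBS array, 859 and 1361 without the LRRK2KO PBS array, and 937 and 1447 without the Ntg LPS 6 h array. The median change over all genes was -0.13, and the split between directions moved with the scaling. With arrays scaled to the median of the probes detected on all of them, the median change was 0.02, 1711 genes were higher and 1769 lower (49.2% of calls higher, against 37.6%). With arrays scaled on all probes it was -0.39, with 779 higher and 3090 lower (20.1% of calls higher). Small changes and the balance of rises and falls in a list are therefore read against the -0.13 of all genes. The changes of the 2 genotypes correlated with r = 0.860 across the 8598 genes, which are not independent replicates, and 80.8% of the genes had the same sign in both. The housekeeping genes Actb and Gapdh changed by -0.07 ± 0.15 (adjusted p = 0.7) and -0.10 ± 0.16 (adjusted p = 0.637), with the sign of both turned under the first of these scalings.

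**Figure D1:**
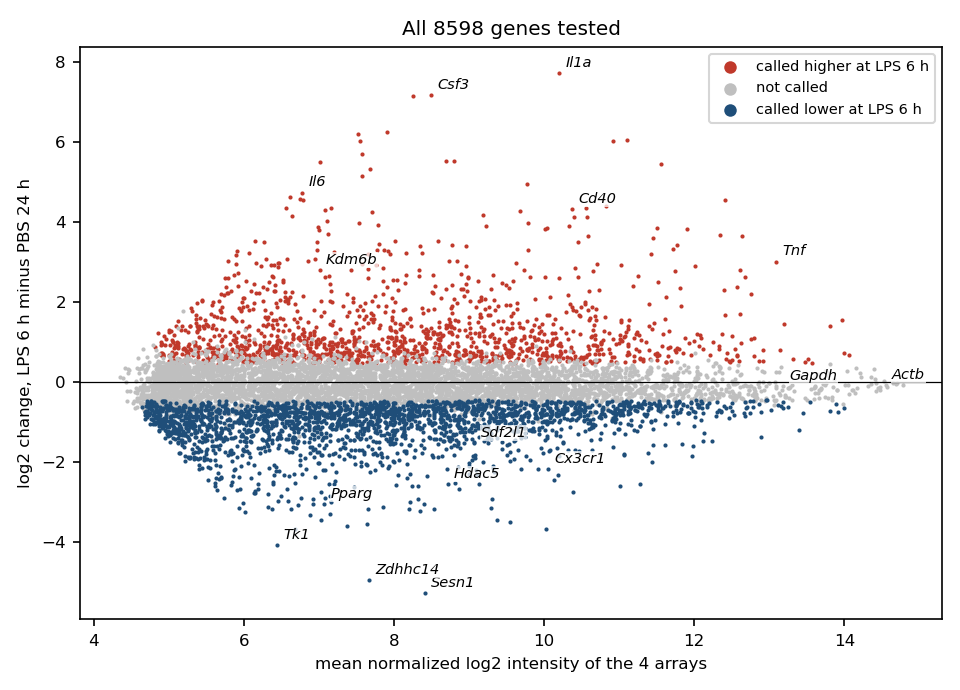
Change in log2 level, LPS 6 h minus PBS 24 h, of each of the 8598 genes (vertical axis) against its mean log2 level over the 4 arrays (horizontal axis), red where called higher, blue where called lower and grey where not called. The 84 rises of at least 8-fold reach further from 0 than the 28 falls of that size, but the detection floor cuts off falls more often (380 called falls, against 96 called rises).

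Cytokine genes made up much of the top of the list, with Il1a and Csf3 as the 2 largest rises by the naming rule. Of 27 tested interleukins and growth factors of myeloid cells, 19 rose and 2 fell, with a median change of 2.59 against -0.13 for all genes. Il1a stood at 13.91 (LRRK2KO) and 14.22 (Ntg) after LPS, against 5.32 (LRRK2KO) and 7.36 (Ntg) in PBS, a change of 7.73 ± 0.39 (adjusted p = 0.000295). Csf3, the gene of granulocyte colony-stimulating factor, stood at 11.43 (LRRK2KO) and 12.74 (Ntg) after LPS, against 4.91 (LRRK2KO) and 4.91 (Ntg) in PBS, a change of 7.17 ± 0.31, and no level on an LPS 6 h array came near a PBS level in either gene. One of the PBS arrays did not detect Csf3, and its other detected probe changed by 1.45. Il27, a subunit of a cytokine of the interleukin-12 family, stood at 10.27 (LRRK2KO) and 10.995 (Ntg) after LPS, against 4.27 (LRRK2KO) and 4.57 (Ntg) in PBS, where neither PBS array detected it, and was at least 52.6-fold higher after LPS, reckoned against the lowest signal the PBS arrays detected (adjusted p = 0.000161). Il6 was at least 18.7-fold higher and Csf2, the gene of the macrophage growth factor GM-CSF, at least 16.2-fold higher by the same reckoning. The receptor antagonist Il1rn, which blocks interleukin-1, rose by 4.35 ± 0.32 and Il1b by 4.56 ± 0.25. The 3 detected probes of Il1rn ranged from 1.15 to 4.35. The genotypes differed in Il19, a relative of interleukin-10, which stood at 7.66 (LRRK2KO) and 10.46 (Ntg) after LPS, against 4.45 (LRRK2KO) and 4.57 (Ntg) in PBS, undetected in PBS, and was at least 17.7-fold higher. When only genes detected on all 4 arrays of the comparison were tested, 9 interleukins and growth factors rose, because several of these genes are undetected in PBS.

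**Figure D2:**
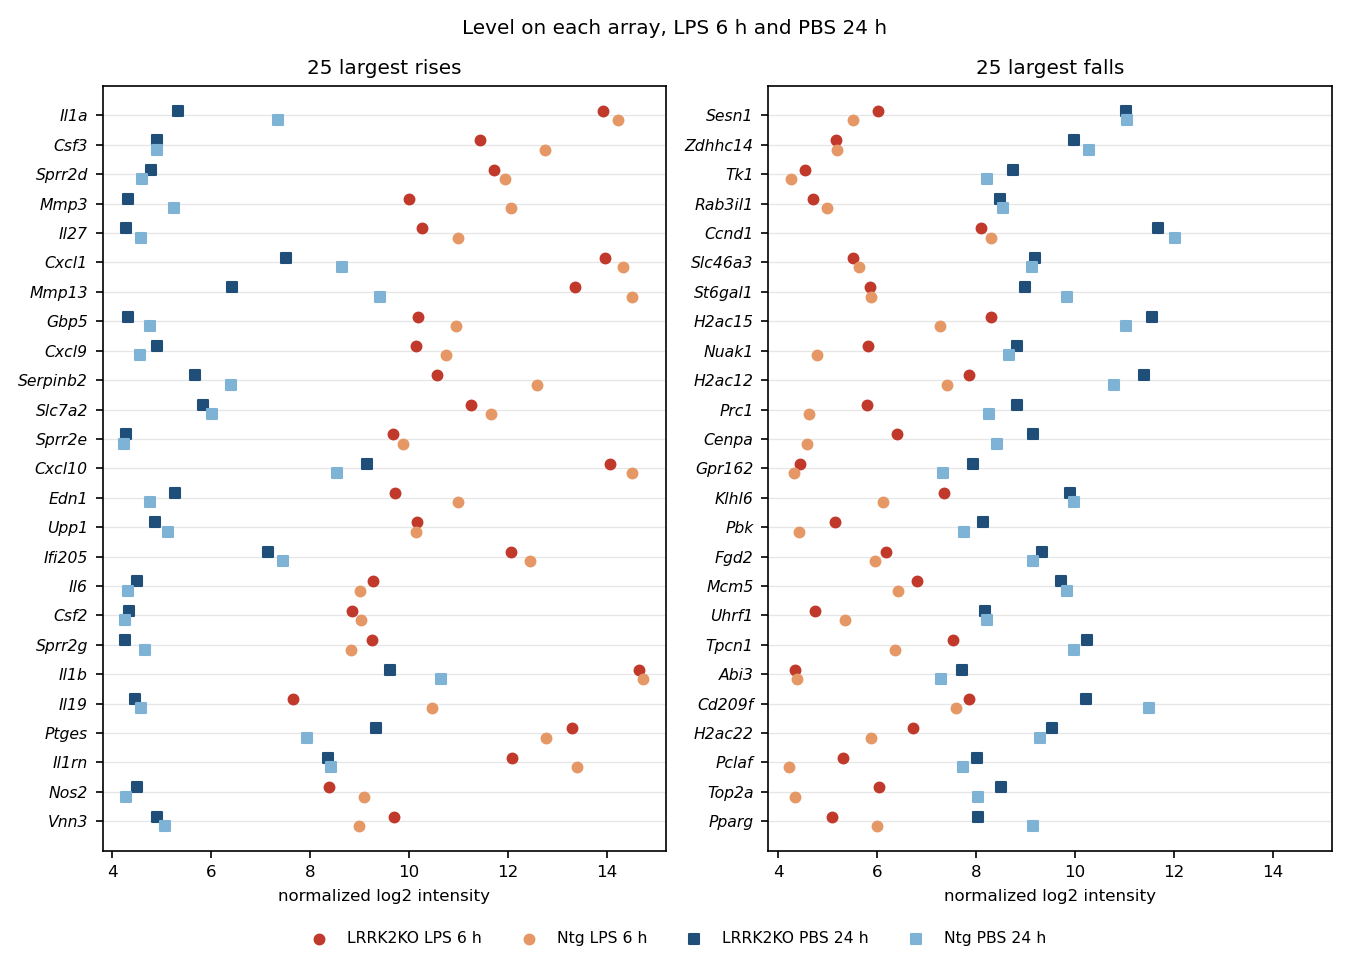
Normalized log2 level (horizontal axis) of the 25 largest rises and the 25 largest falls, with 1 point for each of the 4 arrays (circles LPS 6 h, squares PBS 24 h, coloured by genotype). In Il1a the 2 LPS 6 h arrays stand at 13.91 and 14.22, above 5.32 and 7.36 in PBS, and in Sesn1 they stand at 6.03 and 5.51, below 11.03 and 11.05.

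Secreted chemokines and ligands of the TNF family followed the cytokines. Of 19 tested chemokines 12 rose and 0 fell, and 3 fell under scaling on all probes. Cxcl1 stood at 13.95 (LRRK2KO) and 14.32 (Ntg) after LPS, against 7.51 (LRRK2KO) and 8.64 (Ntg) in PBS, a change of 6.06 ± 0.28 (adjusted p = 0.000239). The interferon-induced T-cell attractant Cxcl10 stood at 14.07 (LRRK2KO) and 14.50 (Ntg) after LPS, against 9.15 (LRRK2KO) and 8.53 (Ntg) in PBS, a change of 5.44 ± 0.39. Its relative Cxcl9 was undetected in PBS and was at least 45.9-fold higher. Ccl7, a monocyte attractant, stood at 12.91 (LRRK2KO) and 14.08 (Ntg) after LPS, against 8.55 (LRRK2KO) and 11.56 (Ntg) in PBS, so its PBS levels lay far apart and the changes of 4.36 in LRRK2KO and 2.52 in Ntg cells had the same direction and unequal size. Tnf, already abundant in PBS, stood at 14.59 (LRRK2KO) and 14.60 (Ntg) after LPS, against 11.66 (LRRK2KO) and 11.51 (Ntg) in PBS, a change of 3.01 ± 0.16 (adjusted p = 0.000301). Tnfsf9, the ligand of the T-cell receptor 4-1BB, rose by 2.67 ± 0.20, and Tnfsf10, the death ligand TRAIL, was at least 4.09-fold higher. Of the 15 TNF ligands on the array only 4 passed the filter, and of these 3 rose and 0 fell. When only genes detected on all 4 arrays of the comparison were tested, 2 rose.

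Genes of the pathway from TLR4 to the nucleus rose in both lists that cover it. Of 20 tested genes of the TLR4 complex and its adaptors 10 rose and 1 fell, with 4 higher without the Ntg PBS array and 6 without the LRRK2KO PBS array. Peli1, a ubiquitin ligase of this pathway, rose by 1.92 ± 0.15 (adjusted p = 0.000691) and the kinase gene Irak2 by 1.55 ± 0.14. Of 17 genes of NF-kB subunits and their inhibitors 14 rose and 0 fell, with a median change of 1.44. Tnfaip3, which encodes the deubiquitinase A20, a brake on NF-kB, stood at 10.24 (LRRK2KO) and 10.58 (Ntg) after LPS, against 7.27 (LRRK2KO) and 7.73 (Ntg) in PBS, a change of 2.91 ± 0.15. Traf1, an adaptor of TNF receptors, stood at 11.75 (LRRK2KO) and 11.81 (Ntg) after LPS, against 8.30 (LRRK2KO) and 7.29 (Ntg) in PBS, a change of 3.99 ± 0.28. The subunits Rel and Nfkb2 rose by 2.22 ± 0.28 and 2.04 ± 0.21, and the A20 partner Tnip1 by 1.90 ± 0.17. In these genes both LPS 6 h arrays lay above both PBS arrays.

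Inducible transcription factors split into a larger group that rose and a smaller group that fell. Of 22 tested AP-1, ATF and immediate early genes 13 rose and 4 fell, although 8 rose when the Ntg LPS 6 h, the Ntg PBS or the LRRK2KO PBS array was left out, and 2 fell without either of these Ntg arrays. Batf2, an interferon-induced factor that pairs with JUN proteins, stood at 9.01 (LRRK2KO) and 10.02 (Ntg) after LPS, against 6.07 (LRRK2KO) and 6.37 (Ntg) in PBS, a change of 3.30 ± 0.23 (adjusted p = 0.000548). Hivep3, a large zinc-finger protein that binds kappaB-like sequences, stood at 10.72 (LRRK2KO) and 10.69 (Ntg) after LPS, against 8.18 (LRRK2KO) and 8.36 (Ntg) in PBS, a change of 2.44 ± 0.17, and in each arm the 2 genotypes lay close together. The early response genes Egr1 and Ier3 rose by 2.34 ± 0.19 and 2.34 ± 0.17, and the FOS relative Fosl2 by 1.87 ± 0.15. Klf2, which restrains inflammatory genes in macrophages, fell by 1.69 ± 0.30, with 6.81 (LRRK2KO) and 6.45 (Ntg) after LPS, against 8.84 (LRRK2KO) and 7.80 (Ntg) in PBS. Without the genotype term Egr1 and Klf2 did not pass the test. Of 11 tested IRF and STAT factors 7 rose and 0 fell, or 4 without either PBS array, and Stat2, a subunit of the interferon-activated factor ISGF3, rose the most, with 10.41 (LRRK2KO) and 10.94 (Ntg) after LPS, against 7.99 (LRRK2KO) and 8.40 (Ntg) in PBS and a change of 2.48 ± 0.14. Irf7, the amplifier of interferon genes, rose by 1.65 ± 0.16.

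Lineage factors of microglia did not move as a block. Of 23 tested, 6 rose (26.1%, against 15.8% of all genes) and 8 fell (34.8%, against 26.2%). Fewer rose when any single array was left out, and fewer fell when any array other than the Ntg LPS 6 h array was. Pparg, the lipid-sensing nuclear receptor that represses inflammatory genes, stood at 5.09 (LRRK2KO) and 6.01 (Ntg) after LPS, against 8.04 (LRRK2KO) and 9.16 (Ntg) in PBS, a change of -3.06 ± 0.17 (adjusted p = 0.000337). Etv5, an ETS-family factor, stood at 6.75 (LRRK2KO) and 6.18 (Ntg) after LPS, against 8.18 (LRRK2KO) and 8.82 (Ntg) in PBS, a change of -2.04 ± 0.30. Mef2c and Smad3, factors of microglial identity and of TGF-beta signalling, fell by 1.62 ± 0.18 and 1.46 ± 0.16. Bhlhe40, a factor known for inflammatory cytokine control, rose by 1.9995 ± 0.20, and Zeb1, a repressor of epithelial genes, by 1.82 ± 0.14 with 6.95 (LRRK2KO) and 7.13 (Ntg) after LPS, against 5.18 (LRRK2KO) and 5.25 (Ntg) in PBS. Of 22 TGF-beta and BMP genes 6 rose (27.3%, against 15.8% of all genes) and 4 fell (18.2%, against 26.2%). Fewer rose when any single array was left out. The falls included the receptor Tgfbr2 at -1.72 ± 0.20 and Nrros, which presents TGF-beta on microglia, at -1.82 ± 0.17, and the rises included the co-repressor Tgif1 at 1.49 ± 0.17.

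Feedback genes were prominent among the rises. Of 25 tested phosphatases and feedback kinases of MAP kinase pathways 13 rose and 2 fell, or 5 fell under scaling on all probes, and none fell without the Ntg PBS array. Dusp2, a nuclear phosphatase of ERK and p38, stood at 10.73 (LRRK2KO) and 11.61 (Ntg) after LPS, against 7.54 (LRRK2KO) and 6.996 (Ntg) in PBS, a change of 3.90 ± 0.36 (adjusted p = 0.00111). Dusp16, which acts on JNK, stood at 11.03 (LRRK2KO) and 11.22 (Ntg) after LPS, against 8.24 (LRRK2KO) and 8.41 (Ntg) in PBS, a change of 2.80 ± 0.14, with all 4 of its detected probes between 2.63 and 3.23. The stress sensor Gadd45b, an activator of p38, stood at 9.72 (LRRK2KO) and 10.98 (Ntg) after LPS, against 6.68 (LRRK2KO) and 6.96 (Ntg) in PBS, a change of 3.53 ± 0.27. Dusp4 and Dusp5, 2 further phosphatases of ERK, rose by 1.85 ± 0.20 and 1.99 ± 0.21. Map2k1, the kinase MEK1 that activates ERK, was undetected in PBS and was at least 2.28-fold higher.

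Of 19 tested SOCS and RNA-decay genes 8 rose (42.1%, against 15.8% of all genes) and 4 fell (21.1%, against 26.2%). Fewer fell when any single array was left out. Socs3, which silences the interleukin-6 receptor, stood at 12.25 (LRRK2KO) and 12.69 (Ntg) after LPS, against 8.04 (LRRK2KO) and 8.65 (Ntg) in PBS, a change of 4.13 ± 0.17 (adjusted p = 0.000235). Cish, a SOCS protein induced through STAT5, stood at 7.71 (LRRK2KO) and 8.17 (Ntg) after LPS, against 4.85 (LRRK2KO) and 5.09 (Ntg) in PBS, a change of 2.97 ± 0.15. Zc3h12a, the ribonuclease regnase-1 that degrades cytokine messages, rose by 2.52 ± 0.18. Its functional relative Zfp36l1, which also marks messages for decay, fell by 1.80 ± 0.14, with 9.91 (LRRK2KO) and 10.42 (Ntg) after LPS, against 11.72 (LRRK2KO) and 12.21 (Ntg) in PBS, although its 3 detected probes ranged from -1.80 to -0.47. Socs5 was undetected after LPS and was at least 1.98-fold lower, and Trib3, a pseudokinase of the stress response, fell by 1.40 ± 0.29, or by 0.98 with no call without the LRRK2KO PBS array.

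Antiviral genes rose almost without exception. Of 37 tested interferon-induced effectors 35 rose and 0 fell, with a median change of 2.04, and all 9 tested GBP and IRG GTPases rose. Gbp5, a GTPase that coats intracellular bacteria, stood at 10.18 (LRRK2KO) and 10.94 (Ntg) after LPS, against 4.32 (LRRK2KO) and 4.77 (Ntg) in PBS, undetected in PBS, and was at least 50-fold higher (adjusted p = 0.000235). Gbp3 stood at 12.28 (LRRK2KO) and 12.996 (Ntg) after LPS, against 8.56 (LRRK2KO) and 8.46 (Ntg) in PBS, a change of 4.13 ± 0.31. Oasl1, a translational regulator of interferon responses, rose by 4.18 ± 0.19, the antiviral GTPase gene Mx1 by 3.98 ± 0.23, and Isg20, an RNA exonuclease, by 3.70 ± 0.26. Cmpk2 and Rsad2 lie next to each other in the genome and rose by 3.91 ± 0.17 and 3.68 ± 0.21; their levels after LPS were 12.002 (LRRK2KO) and 12.59 (Ntg) and 13.83 (LRRK2KO) and 14.52 (Ntg). The family members are similar in sequence, and cross-hybridization between them was not tested.

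Sensors of the cytosol rose with them. Of 15 inflammasome and pyroptosis genes 11 rose and 1 fell. Nlrp3, the sensor of the best-known inflammasome, stood at 10.06 (LRRK2KO) and 10.43 (Ntg) after LPS, against 6.88 (LRRK2KO) and 7.54 (Ntg) in PBS, a change of 3.04 ± 0.16 (adjusted p = 0.000295). Il18, a cytokine released through it, rose by 2.92 ± 0.21, the LPS-binding caspase gene Casp4 by 1.77 ± 0.14, and the bacterial sensor Nod2 by 1.76 ± 0.15. Nlrc5, a sensor-family protein that drives MHC class I genes, rose by 2.33 ± 0.19.

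Survival and death genes changed in both directions, with 12 of 29 higher (41.4%, against 15.8% of all genes) and 7 lower (24.1%, against 26.2%). Fewer were lower without the Ntg PBS or the LRRK2KO PBS array. Malt1, a protease of NF-kB signalling, stood at 8.85 (LRRK2KO) and 8.40 (Ntg) after LPS, against 5.15 (LRRK2KO) and 5.48 (Ntg) in PBS, a change of 3.30 ± 0.23 (adjusted p = 0.000541). The survival kinases Pim1 and Pim3 rose by 2.66 ± 0.38 and 1.82 ± 0.17, and Mlkl, the executioner of necroptosis, by 2.52 ± 0.15, with 10.35 (LRRK2KO) and 11.35 (Ntg) after LPS, against 7.95 (LRRK2KO) and 8.72 (Ntg) in PBS. The BH3-only death genes Bmf and Pmaip1 were undetected after LPS and were at least 1.47-fold and 2.19-fold lower, the second with no call without the LRRK2KO PBS array (a change of -1.09).

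**Figure D3:**
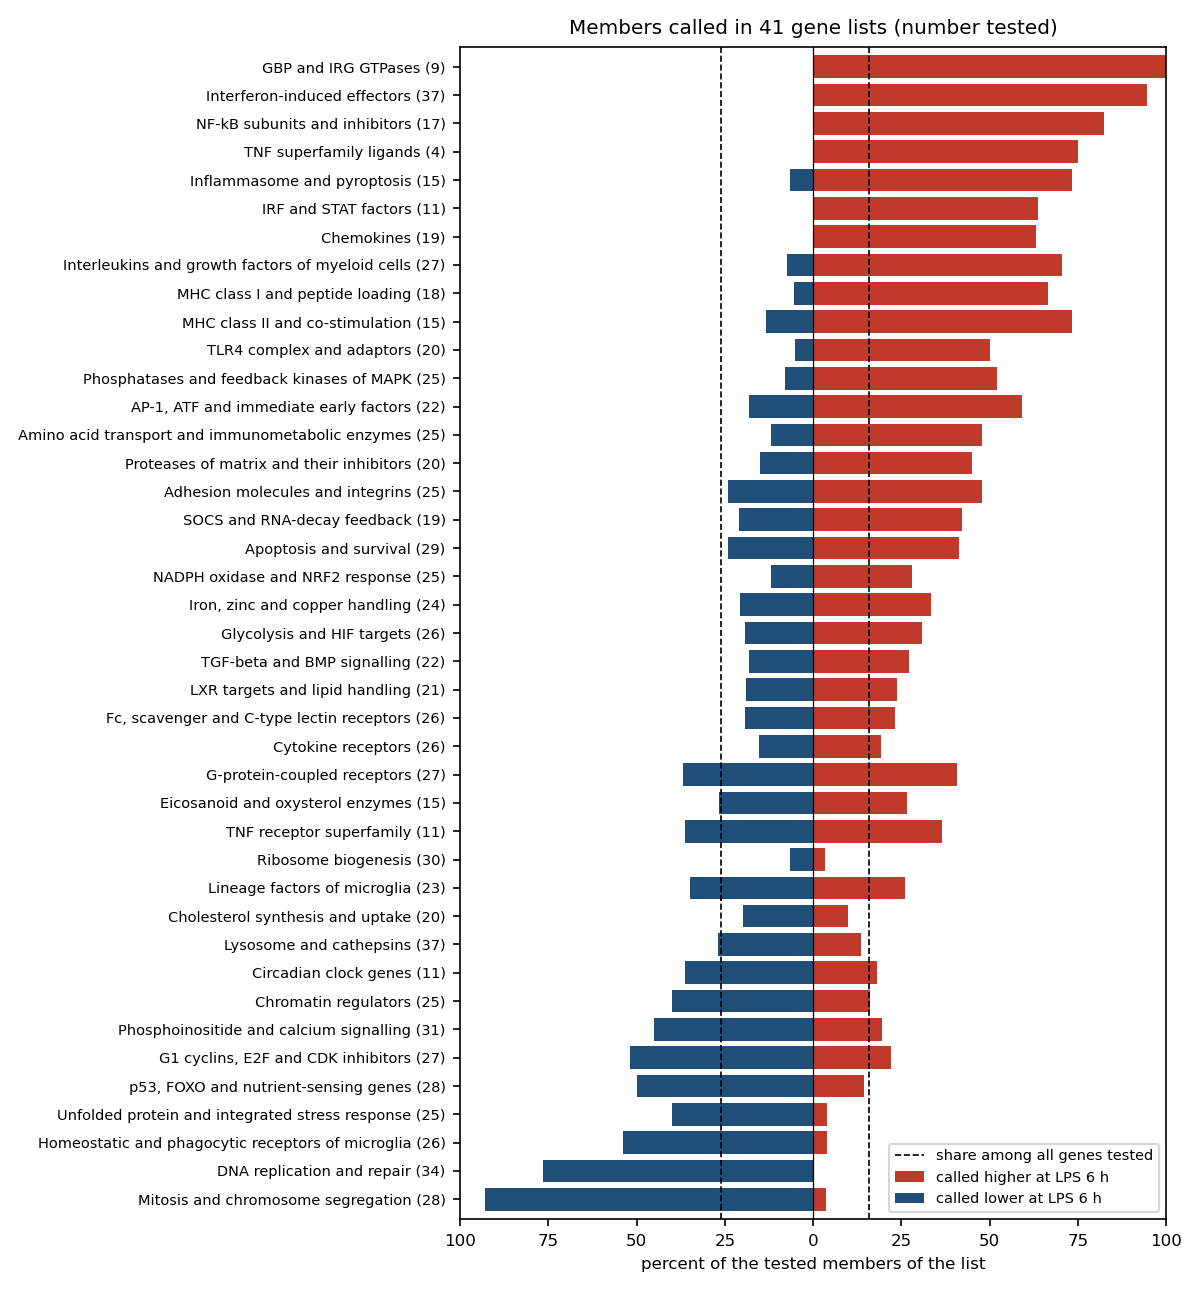
Percent of the tested members of each of 41 gene lists called higher (right, red) or lower (left, blue) after 6 h of LPS than in PBS 24 h (limma adjusted p under 0.05), with the number tested in parentheses and dashed lines at the 15.8% and 26.2% of all genes. Interferon-induced effectors, with 35 rises of 37, stand near the top, and mitosis genes, with 26 falls of 28, at the bottom.

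Of 26 tested cytokine receptors 5 rose (19.2%, against 15.8% of all genes) and 4 fell (15.4%, against 26.2%), and 17 were not called, or 11 rose under median scaling of the detected probes. Il15ra, the receptor of interleukin-15, stood at 6.82 (LRRK2KO) and 8.47 (Ntg) after LPS, against 4.65 (LRRK2KO) and 4.70 (Ntg) in PBS, undetected in PBS, and was at least 6.64-fold higher. Il17ra, the receptor of interleukin-17, stood at 8.07 (LRRK2KO) and 8.84 (Ntg) after LPS, against 5.97 (LRRK2KO) and 5.65 (Ntg) in PBS, a change of 2.64 ± 0.27 (adjusted p = 0.00139). The interleukin-6 receptor chain Il6ra fell by 1.84 ± 0.27, with 6.09 (LRRK2KO) and 6.62 (Ntg) after LPS, against 8.47 (LRRK2KO) and 7.91 (Ntg) in PBS, while the ligand rose. Ifngr1, the ligand-binding chain for interferon-gamma, fell by 1.43 ± 0.14, with 8.46 (LRRK2KO) and 8.59 (Ntg) after LPS, against 9.93 (LRRK2KO) and 9.98 (Ntg) in PBS. Among 11 TNF receptors 4 rose (36.4%, against 15.8% of all genes) and 4 fell (36.4%, against 26.2%). Fewer fell without the Ntg LPS 6 h array or either PBS array. Cd40, the co-stimulatory receptor, stood at 12.06 (LRRK2KO) and 12.9997 (Ntg) after LPS, against 7.80 (LRRK2KO) and 8.62 (Ntg) in PBS, a change of 4.32 ± 0.16, and Tnfrsf1b, the second TNF receptor, rose by 2.13 ± 0.23. Tnfrsf11a, the receptor RANK, fell by 1.05 ± 0.17.

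Of 27 tested G-protein-coupled receptors 11 rose (40.7%, against 15.8% of all genes) and 10 fell (37%, against 26.2%). Fewer fell when any single array was left out, and fewer rose without any 1 of the 4 arrays of the comparison. Ccrl2, a non-signalling receptor that holds the attractant chemerin, stood at 11.43 (LRRK2KO) and 12.21 (Ntg) after LPS, against 7.35 (LRRK2KO) and 7.72 (Ntg) in PBS, a change of 4.29 ± 0.17 (adjusted p = 0.000235). Hcar2, the receptor of nicotinic acid and ketone bodies, stood at 11.41 (LRRK2KO) and 12.45 (Ntg) after LPS, against 7.95 (LRRK2KO) and 8.23 (Ntg) in PBS, a change of 3.84 ± 0.22. The medium-chain fatty acid receptor Gpr84 rose by 2.63 ± 0.25 and Gpr18 by 2.60 ± 0.22. Gpr183, the receptor of the oxysterol guidance cue, was undetected after LPS, with 4.45 (LRRK2KO) and 4.46 (Ntg) after LPS, against 6.75 (LRRK2KO) and 7.01 (Ntg) in PBS, and was at least 3.21-fold lower. The enzyme that makes the precursor of that ligand, Ch25h, rose by 3.83 ± 0.22. Cx3cr1, the fractalkine receptor of microglia, stood at 10.33 (LRRK2KO) and 7.605 (Ntg) after LPS, against 11.42 (LRRK2KO) and 10.87 (Ntg) in PBS, a change of -2.18 ± 0.48 (adjusted p = 0.0154), or -1.43 with no call when the Ntg LPS 6 h array was left out and -1.29 for the Ntg PBS array, and it also lost the call without the genotype term.

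Of 15 eicosanoid and oxysterol enzymes 4 were higher (26.7%, against 15.8% of all genes) and 4 lower (26.7%, against 26.2%), or 8 lower under scaling on all probes. Ptges, the inducible prostaglandin E synthase, stood at 13.29 (LRRK2KO) and 12.77 (Ntg) after LPS, against 9.32 (LRRK2KO) and 7.94 (Ntg) in PBS, a change of 4.40 ± 0.27 (adjusted p = 0.000448). Ptgs2, the cyclo-oxygenase upstream of it, was undetected in PBS and was at least 5.19-fold higher. Hpgd, which inactivates prostaglandins, stood at 5.12 (LRRK2KO) and 4.73 (Ntg) after LPS, against 7.52 (LRRK2KO) and 7.93 (Ntg) in PBS, a change of -2.80 ± 0.22. Pla2g15, a lysosomal phospholipase, stood at 9.25 (LRRK2KO) and 8.77 (Ntg) after LPS, against 11.69 (LRRK2KO) and 11.82 (Ntg) in PBS, a change of -2.74 ± 0.20.

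Arginine uptake and use were represented among the largest rises. Of 25 tested genes of amino acid transport and immunometabolism 12 rose and 3 fell, or 1 fell without either PBS array. Slc7a2, a transporter of arginine and other cationic amino acids, stood at 11.26 (LRRK2KO) and 11.66 (Ntg) after LPS, against 5.83 (LRRK2KO) and 6.02 (Ntg) in PBS, a change of 5.53 ± 0.17 (adjusted p = 0.000161). Its 4 detected probes ranged from 2.57 to 5.53. Nos2, the nitric oxide synthase that uses arginine, was undetected in PBS and was at least 14.1-fold higher. Gch1, which starts the synthesis of the cofactor of that enzyme, rose by 2.49 ± 0.14, and the mitochondrial arginase Arg2 by 2.19 ± 0.17. Arg1, the other arginase, was undetected on all 4 arrays of the comparison and has no fold. Slc7a11, the cystine-glutamate exchanger, stood at 12.43 (LRRK2KO) and 11.98 (Ntg) after LPS, against 10.26 (LRRK2KO) and 7.13 (Ntg) in PBS, a change of 3.51 ± 0.57, and its LRRK2KO and Ntg levels lay close together after LPS but far apart in PBS. Acod1, the itaconate-producing enzyme, rose by 2.37 ± 0.24 from an already high PBS level.

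Energy, metal and lipid genes changed in smaller numbers. Of 26 glycolysis and HIF-target genes 8 rose (30.8%, against 15.8% of all genes) and 5 fell (19.2%, against 26.2%). Fewer fell without either the Ntg LPS 6 h or the Ntg PBS array. The vasoactive peptide gene Adm stood at 8.14 (LRRK2KO) and 8.09 (Ntg) after LPS, against 5.24 (LRRK2KO) and 4.84 (Ntg) in PBS, a change of 3.08 ± 0.24, and the lactate exporter Slc16a3 rose by 1.31 ± 0.15, whereas Ndrg1, another hypoxia target, fell by 1.95 ± 0.28. Hilpda, an inhibitor of lipid-droplet breakdown, stood at 10.62 (LRRK2KO) and 11.59 (Ntg) after LPS, against 7.72 (LRRK2KO) and 8.55 (Ntg) in PBS, a change of 2.97 ± 0.16 (adjusted p = 0.000301), and the fatty acid carrier Fabp3 rose by 2.19 ± 0.21. Abcg1, a cholesterol exporter, was undetected after LPS and was at least 2.91-fold lower, and so was Dhcr7, which makes cholesterol, at least 2.88-fold. Of 21 LXR-target and lipid genes 5 rose (23.8%, against 15.8% of all genes) and 4 fell (19%, against 26.2%). Fewer rose without the LRRK2KO PBS or the LRRK2KO LPS 6 h array, and fewer fell without the Ntg PBS array. Of 24 metal-handling genes 8 rose (33.3%, against 15.8% of all genes) and 5 fell (20.8%, against 26.2%). Fewer rose when any 1 of the 6 arrays was left out. Lcn2, which binds bacterial iron carriers, rose by 2.42 ± 0.31, the mitochondrial iron importer Slc25a37 by 1.90 ± 0.14 and the zinc and iron importer Slc39a14 by 1.79 ± 0.17. Tfrc, the transferrin receptor, fell by 1.28 ± 0.15, with 10.26 (LRRK2KO) and 10.31 (Ntg) after LPS, against 11.54 (LRRK2KO) and 11.59 (Ntg) in PBS. Upp1, the uridine phosphorylase that salvages pyrimidines, stood at 10.15 (LRRK2KO) and 10.14 (Ntg) after LPS, against 4.86 (LRRK2KO) and 5.13 (Ntg) in PBS, a change of 5.15 ± 0.17.

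The largest fall of all belonged to a nutrient-sensing gene. Sesn1 stood at 6.03 (LRRK2KO) and 5.51 (Ntg) after LPS, against 11.03 (LRRK2KO) and 11.05 (Ntg) in PBS, a change of -5.27 ± 0.21 (adjusted p = 0.000235), and its 3 detected probes fell by 3.51 to 5.27. Of 28 tested p53, FOXO and nutrient-sensing genes 14 fell and 4 rose, or 9 fell without the Ntg PBS array. Nuak1, a kinase of the AMPK family, stood at 5.82 (LRRK2KO) and 4.79 (Ntg) after LPS, against 8.83 (LRRK2KO) and 8.67 (Ntg) in PBS, a change of -3.45 ± 0.24. The MYC antagonist Mxd4 stood at 5.83 (LRRK2KO) and 5.09 (Ntg) after LPS, against 8.53 (LRRK2KO) and 8.22 (Ntg) in PBS, a change of -2.91 ± 0.24, and Tsc22d3, a glucocorticoid-induced gene, fell by 2.25 ± 0.15. Phlda3, a p53 target that restrains AKT, fell by 2.003 ± 0.31, with 7.28 (LRRK2KO) and 6.71 (Ntg) after LPS, against 9.94 (LRRK2KO) and 8.06 (Ntg) in PBS, and lost the call without the genotype term. Irs2, an insulin receptor substrate, rose by 1.44 ± 0.16, and likewise lost it. Zdhhc14, an enzyme that attaches palmitate to proteins, was the second largest fall, with 5.17 (LRRK2KO) and 5.20 (Ntg) after LPS, against 9.99 (LRRK2KO) and 10.29 (Ntg) in PBS and a change of -4.95 ± 0.16 (adjusted p = 0.000161).

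Of 25 tested genes of the unfolded protein and integrated stress response 10 fell (40.0%, against 26.2% of all genes), 1 rose and 14 were not called. There were 7 falls under median scaling of the detected probes and 6 without the Ntg PBS array. Sdf2l1, an ER-stress-induced cochaperone, stood at 8.44 (LRRK2KO) and 8.17 (Ntg) after LPS, against 9.84 (LRRK2KO) and 9.83 (Ntg) in PBS, a change of -1.52 ± 0.15 (adjusted p = 0.00131). Chac1, a glutathione-degrading enzyme of the ATF4 pathway, stood at 8.12 (LRRK2KO) and 8.16 (Ntg) after LPS, against 9.62 (LRRK2KO) and 9.24 (Ntg) in PBS, a change of -1.29 ± 0.16. The disulfide isomerase Pdia4 fell by 1.23 ± 0.22, the calcium-binding chaperone Calr by 1.10 ± 0.15, and Herpud1, which serves ER-associated degradation, by 1.04 ± 0.14. In Calr both LPS 6 h arrays lay below both PBS arrays, with 10.79 (LRRK2KO) and 10.67 (Ntg) after LPS, against 11.79 (LRRK2KO) and 11.87 (Ntg) in PBS.

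Division genes were the most uniform group among the falls. Of 28 mitosis genes 26 fell and 1 rose, with a median change of -2.39, and of 34 replication and repair genes 26 fell and 0 rose. Many were undetected after LPS, so that 2 mitosis genes and 16 replication genes fell when only genes detected on all 4 arrays were tested. Tk1 was undetected on both LPS 6 h arrays, with 4.55 (LRRK2KO) and 4.26 (Ntg) after LPS, against 8.75 (LRRK2KO) and 8.22 (Ntg) in PBS, and was at least 9.77-fold lower (adjusted p = 0.000235). Its other probe that passed the filter changed by -0.77, so this bound is that of 1 probe. Mcm5, a subunit of the replicative helicase, stood at 6.82 (LRRK2KO) and 6.42 (Ntg) after LPS, against 9.71 (LRRK2KO) and 9.85 (Ntg) in PBS, a change of -3.16 ± 0.18. Of 27 genes of G1 cyclins, E2F factors and CDK inhibitors 14 fell and 6 rose, with 3 rises when the Ntg LPS 6 h or the LRRK2KO PBS array was left out and 2 for the Ntg PBS array. Ccnd1, the G1 cyclin D1, stood at 8.10 (LRRK2KO) and 8.30 (Ntg) after LPS, against 11.68 (LRRK2KO) and 12.03 (Ntg) in PBS, a change of -3.66 ± 0.16, whereas Ccnd2 rose by 1.67 ± 0.26, with 8.26 (LRRK2KO) and 8.84 (Ntg) after LPS, against 6.10 (LRRK2KO) and 7.65 (Ntg) in PBS, and lost the call without the genotype term. The LPS levels of the genotypes differed in Cenpa, the centromeric histone, which stood at 6.401 (LRRK2KO) and 4.597 (Ntg) after LPS, against 9.16 (LRRK2KO) and 8.42 (Ntg) in PBS. Histone genes H2ac15, H2ac12 and H2ac22 fell by 3.51 ± 0.17, 3.44 ± 0.15 and 3.11 ± 0.20.

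Chromatin regulators were lower in 10 of 25 cases (40%, against 26.2% of all genes) and higher in 4 (16%, against 15.8%). Fewer fell when any array other than the LRRK2KO LPS 6 h array was left out. Fewer rose without the Ntg LPS 6 h, the Ntg PBS or the LRRK2KO PBS array. Kdm6b, the H3K27 demethylase known as an LPS-induced gene in macrophages, stood at 7.89 (LRRK2KO) and 8.92 (Ntg) after LPS, against 5.64 (LRRK2KO) and 5.59 (Ntg) in PBS, a change of 2.79 ± 0.27 (adjusted p = 0.00122). Kdm4a, a demethylase of H3K9, rose by 1.73 ± 0.16. The class IIa deacetylases Hdac5 and Hdac4 fell by 2.55 ± 0.18 and 1.39 ± 0.18, with Hdac5 at 7.69 (LRRK2KO) and 7.19 (Ntg) after LPS, against 9.995 (LRRK2KO) and 9.99 (Ntg) in PBS. Ezh2, the methyltransferase that opposes Kdm6b, fell by 1.498 ± 0.20 and the maintenance methyltransferase Dnmt1 by 1.36 ± 0.18.

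Surveillance and clearance genes of microglia fell in 14 of 26 cases and rose in 1, with 8 falls when the Ntg LPS 6 h array was left out and 9 for the Ntg PBS array. Abi3, an actin regulator with a risk variant for Alzheimer's disease in human, was undetected after LPS, with 4.35 (LRRK2KO) and 4.39 (Ntg) after LPS, against 7.71 (LRRK2KO) and 7.30 (Ntg) in PBS, and was at least 4.96-fold lower (adjusted p = 0.000541). Gas6 and Pros1, bridging ligands for the engulfment of dying cells, fell by 1.58 ± 0.14 and 1.60 ± 0.19. Cd33, an inhibitory sialic acid receptor, was the gene that rose, with 10.64 (LRRK2KO) and 9.84 (Ntg) after LPS, against 8.47 (LRRK2KO) and 6.60 (Ntg) in PBS and a change of 2.71 ± 0.29. Among 26 Fc, scavenger and C-type lectin receptors 6 rose (23.1%, against 15.8% of all genes) and 5 fell (19.2%, against 26.2%). Under median scaling of the detected probes 10 rose, and fewer fell without the Ntg PBS array. The inhibitory antibody receptor Fcgr2b stood at 13.22 (LRRK2KO) and 13.55 (Ntg) after LPS, against 9.70 (LRRK2KO) and 10.39 (Ntg) in PBS, a change of 3.34 ± 0.17. The lectin Cd209f stood at 7.86 (LRRK2KO) and 7.59998 (Ntg) after LPS, against 10.22 (LRRK2KO) and 11.51 (Ntg) in PBS, a change of -3.13 ± 0.41. Clec4a3, another lectin, fell by 1.70 ± 0.17, and Pilra, a paired inhibitory receptor, rose by 2.07 ± 0.14.

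Signalling from phosphoinositides and ion channels was lower in 14 of 31 genes (45.2%, against 26.2% of all genes) and higher in 6 (19.4%, against 15.8%). Fewer fell when any single array was left out. Fewer rose without either PBS array or the LRRK2KO LPS 6 h array. Kcnk13, the microglial two-pore channel THIK-1, stood at 7.56 (LRRK2KO) and 6.38 (Ntg) after LPS, against 9.27 (LRRK2KO) and 9.47 (Ntg) in PBS, a change of -2.40 ± 0.32 (adjusted p = 0.00319), and Kcnk6 fell by 1.83 ± 0.14. Kcnj2, an inward rectifier, was undetected after LPS and was at least 1.74-fold lower. Kcna3, the voltage-gated channel Kv1.3, stood at 6.56 (LRRK2KO) and 6.80 (Ntg) after LPS, against 4.39 (LRRK2KO) and 4.92 (Ntg) in PBS, a change of 2.02 ± 0.17. Syk, the kinase of immune receptor signalling, rose by 1.53 ± 0.20, and the calcium-dependent factor Nfatc1 fell by 1.31 ± 0.15. The lysosomal cation channel Tpcn1 stood at 7.54 (LRRK2KO) and 6.37 (Ntg) after LPS, against 10.25 (LRRK2KO) and 9.98 (Ntg) in PBS, a change of -3.16 ± 0.28, although its 3 detected probes ranged from -3.16 to -1.32.

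Adhesion genes rose in 12 of 25 cases (48%, against 15.8% of all genes) and fell in 6 (24%, against 26.2%). Fewer fell without the Ntg LPS 6 h, the Ntg PBS or the LRRK2KO PBS array. Fn1, the matrix glycoprotein fibronectin, stood at 8.96 (LRRK2KO) and 9.17 (Ntg) after LPS, against 5.58 (LRRK2KO) and 6.61 (Ntg) in PBS, a change of 2.97 ± 0.25 (adjusted p = 0.00083). Alcam, a homophilic adhesion molecule, rose by 1.61 ± 0.16, with 8.95 (LRRK2KO) and 9.08 (Ntg) after LPS, against 7.37 (LRRK2KO) and 7.45 (Ntg) in PBS, and F11r, a junctional adhesion molecule, was at least 3.2-fold higher than in PBS, where it was undetected. Matrix proteases and their partners gave 9 rises (45%, against 15.8% of all genes) and 3 falls (15%, against 26.2%) among 20. Mmp3 stood at 9.999 (LRRK2KO) and 12.05 (Ntg) after LPS, against 4.31 (LRRK2KO) and 5.24 (Ntg) in PBS and Mmp13, a collagenase, at 13.36 (LRRK2KO) and 14.51 (Ntg) after LPS, against 6.42 (LRRK2KO) and 9.40 (Ntg) in PBS, changes of 6.25 ± 0.27 and 6.03 ± 0.53. The 3 detected probes of Mmp13 ranged from 1.58 to 6.56. Serpinb2, an inhibitor of plasminogen activators, stood at 10.55 (LRRK2KO) and 12.59 (Ntg) after LPS, against 5.67 (LRRK2KO) and 6.41 (Ntg) in PBS, a change of 5.53 ± 0.34, and Plaur, the receptor of urokinase, rose by 3.32 ± 0.15. Fgd2, one of the 25 largest falls and an exchange factor for CDC42, stood at 6.19 (LRRK2KO) and 5.97 (Ntg) after LPS, against 9.33 (LRRK2KO) and 9.15 (Ntg) in PBS, a change of -3.16 ± 0.14.

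Antigen presentation genes rose in both classes. Of 15 class II and co-stimulatory genes 11 rose and 2 fell, or 0 fell without either PBS array. Of 18 class I genes 12 rose and 1 fell, with 7 rises when the Ntg LPS 6 h array was left out and 6 for the Ntg PBS array. H2-Ab1, a chain of a class II molecule, stood at 8.17 (LRRK2KO) and 7.54 (Ntg) after LPS, against 5.24 (LRRK2KO) and 4.63 (Ntg) in PBS, a change of 2.92 ± 0.20 (adjusted p = 0.000534). The co-stimulatory ligand Cd86 rose by 2.13 ± 0.15, the checkpoint ligand Cd274 by 2.66 ± 0.32, and the peptide transporter Tap1 by 2.36 ± 0.19. Lysosomal genes gave 5 rises (13.5%, against 15.8% of all genes) and 10 falls (27%, against 26.2%) among 37, shares near those of all genes. There were 3 falls under median scaling of the detected probes, and fewer fell when any single array was left out. Slc46a3 stood at 5.51 (LRRK2KO) and 5.64 (Ntg) after LPS, against 9.20 (LRRK2KO) and 9.13 (Ntg) in PBS, a change of -3.59 ± 0.17, and Slc15a3, a transporter of bacterial peptides, rose by 1.44 ± 0.16. Of 11 clock genes 2 rose (18.2%, against 15.8% of all genes) and 4 fell (36.4%, against 26.2%). Fewer fell when any single array was left out. Fewer rose without either the Ntg LPS 6 h or the Ntg PBS array, and more rose without the LRRK2KO LPS 6 h array. Dbp, a clock output factor, fell by 1.95 ± 0.20, with 5.53 (LRRK2KO) and 6.03 (Ntg) after LPS, against 7.84 (LRRK2KO) and 7.61 (Ntg) in PBS. Per1 rose by 0.69 ± 0.17 (adjusted p = 0.0247), and it lost the call when single arrays were left out, at 0.58 for the Ntg LPS 6 h, 0.80 for the Ntg PBS and 0.58 for the LRRK2KO PBS array, and Per2 changed by -0.41 ± 0.18 (adjusted p = 0.118).

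The shares of further lists are read against those of all genes (15.8% higher and 26.2% lower). Of 30 ribosome biogenesis genes 1 rose (3.33%) and 2 fell (6.67%), both shares below those of all genes, with a median change of -0.09. More fell without the LRRK2KO LPS 6 h array, and 8 fell under scaling on all probes. Of 20 genes of cholesterol synthesis and uptake 2 rose (10%) and 4 fell (20%), with a median of -0.27. There 0 rose and 1 fell without either the Ntg LPS 6 h or the LRRK2KO PBS array, and 8 fell under scaling on all probes. Of 25 genes of the NADPH oxidase and the NRF2 response 7 rose (28%, above the share of all genes) and 3 fell (12%, below it), with a median of 0.18. Under median scaling of the detected probes 10 rose, and 2 rose under scaling on all probes. Fewer rose when any 1 of the 6 arrays was left out. In all lists, counts of 1 or 2 members in a direction moved to between 0 and 6 when single arrays were left out. A count near 0 from 2 arrays per arm does not show that these genes were level.

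The 6 h arrays were also set against the 24 h LPS arrays in the same fit, which tests the difference between the times of LPS directly. At 6 h 832 genes were higher than at 24 h (9.68% of genes) and 1216 lower (14.1%), together 23.8%. The counts fell to 107 higher and 54 lower without the Ntg LPS 24 h array, to 202 and 146 when the LRRK2KO LPS 24 h array was left out, and to 415 and 404 for the Ntg LPS 6 h array. With no genotype term they were 490 and 767. Interferon-induced effectors were higher at 6 h in 25 of 37 cases and lower in 0, and NF-kB genes in 11 of 17 and 0. Unfolded protein response genes were lower at 6 h in 14 of 25 cases and higher in 1. Among division genes 3 of 28 mitosis genes were lower at 6 h and 0 higher, and 10 of 34 replication and repair genes were lower and 1 higher.

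Some genes that rose at 6 h were lower again at 24 h of LPS. Fabp3 and Dusp4 then lay below their PBS level. Fabp3 stood at 9.35 (LRRK2KO) and 9.10 (Ntg) in PBS, 11.17 (LRRK2KO) and 11.66 (Ntg) at 6 h of LPS and 7.26 (LRRK2KO) and 7.58 (Ntg) at 24 h of LPS, and was higher at 6 h than at 24 h by 3.99 ± 0.21 (adjusted p = 0.00149). Dusp4 stood at 7.75 (LRRK2KO) and 7.15 (Ntg) in PBS, 9.40 (LRRK2KO) and 9.21 (Ntg) at 6 h of LPS and 6.20 (LRRK2KO) and 5.36 (Ntg) at 24 h of LPS, a difference of 3.52 ± 0.20 (adjusted p = 0.00172). Ccrl2 was higher at 6 h by 3.55 ± 0.17, with 7.92 (LRRK2KO) and 8.63 (Ntg) at 24 h of LPS, Hivep3 by 2.51 ± 0.17, with 8.34 (LRRK2KO) and 8.06 (Ntg) at 24 h of LPS, and Kdm6b by 2.36 ± 0.27, with 5.71 (LRRK2KO) and 6.38 (Ntg) at 24 h of LPS. Csf2 was higher at 6 h by 3.47 ± 0.15 and Tnf by 2.05 ± 0.16, and both were above their PBS level at 24 h too.

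Another group was still further from PBS at 24 h. Upp1 stood at 4.86 (LRRK2KO) and 5.13 (Ntg) in PBS, 10.15 (LRRK2KO) and 10.14 (Ntg) at 6 h of LPS and 11.94 (LRRK2KO) and 12.35 (Ntg) at 24 h of LPS, and differed by -1.997 ± 0.17 between 6 h and 24 h (adjusted p = 0.00321). Serpinb2 was lower at 6 h by 1.64, with 12.86 (LRRK2KO) and 13.57 (Ntg) at 24 h of LPS. Arg1, undetected on both LPS 6 h and both PBS arrays, stood at 8.21 (LRRK2KO) and 9.10 (Ntg) at 24 h of LPS, and the times differed (adjusted p = 0.00105). The 2 largest falls lay between their 6 h and PBS levels at 24 h. Sesn1 stood at 11.03 (LRRK2KO) and 11.05 (Ntg) in PBS, 6.03 (LRRK2KO) and 5.51 (Ntg) at 6 h of LPS and 8.58 (LRRK2KO) and 8.81 (Ntg) at 24 h of LPS, a difference between the times of LPS of -2.92 ± 0.21. Zdhhc14 stood at 9.99 (LRRK2KO) and 10.29 (Ntg) in PBS, 5.17 (LRRK2KO) and 5.20 (Ntg) at 6 h of LPS and 8.46 (LRRK2KO) and 8.80 (Ntg) at 24 h of LPS, a difference of -3.44 ± 0.16. Tpcn1 had 9.57 (LRRK2KO) and 9.51 (Ntg) at 24 h of LPS and Abi3 7.05 (LRRK2KO) and 7.44 (Ntg) at 24 h of LPS. The chaperone genes stood above their PBS level at 24 h. Sdf2l1 stood at 9.84 (LRRK2KO) and 9.83 (Ntg) in PBS, 8.44 (LRRK2KO) and 8.17 (Ntg) at 6 h of LPS and 10.54 (LRRK2KO) and 10.33 (Ntg) at 24 h of LPS, a difference of -2.13 ± 0.15. Pdia4 stood at 8.89 (LRRK2KO) and 9.45 (Ntg) in PBS, 8.06 (LRRK2KO) and 7.80 (Ntg) at 6 h of LPS and 10.18 (LRRK2KO) and 10.23 (Ntg) at 24 h of LPS, a difference of -2.27 ± 0.22. Calr was lower at 6 h than at 24 h by 1.63 (adjusted p = 0.00401). Tk1 had 5.26 (LRRK2KO) and 4.52 (Ntg) at 24 h of LPS and was detected on 1 of these arrays, and the times did not pass the test of their difference (adjusted p = 0.0904).

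**Figure D4:**
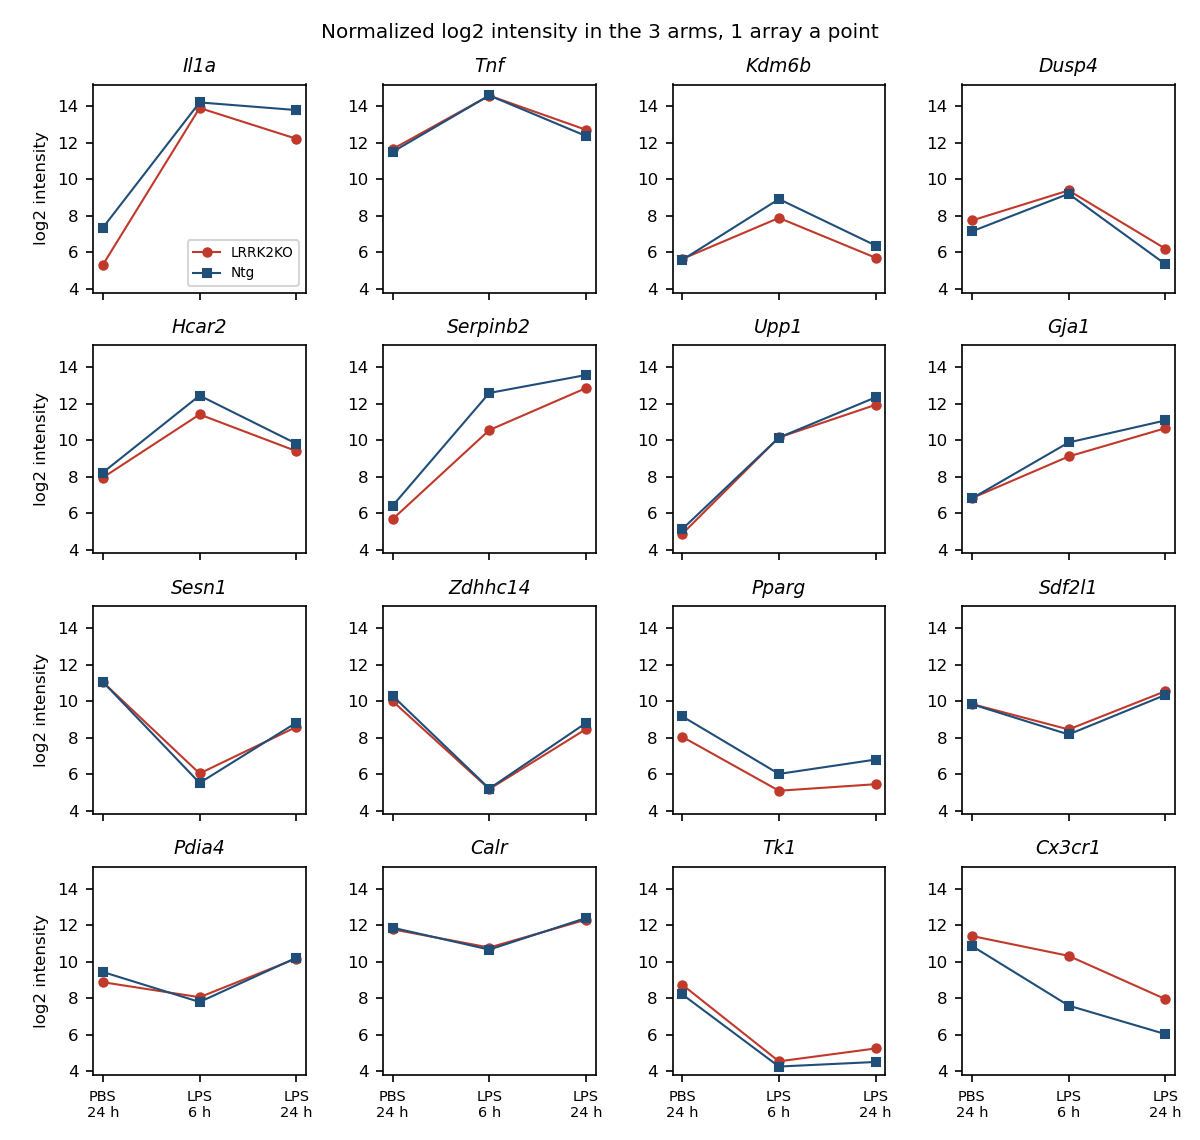
Normalized log2 level of 16 genes in PBS 24 h, LPS 6 h and LPS 24 h (horizontal axis), 1 point per array and a line per genotype. Dusp4 is highest at 6 h, Upp1 and Serpinb2 are highest at 24 h, and Sesn1 and Sdf2l1 are lowest at 6 h.

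The 6 h changes of the LRRK2KO and the Ntg cells rest on 1 array per arm and genotype, so their differences have no test and were counted by size. The change was at least 2-fold larger or less negative in LRRK2KO cells for 245 genes (2.85% of genes) and at least 2-fold smaller or more negative for 197 (2.29%), together 442 (5.14%). These counts moved strongly with the processing, to 35 and 53 without background correction and to 913 and 74 under scaling on all probes. No called gene had opposite signs in the 2 genotypes. The fit takes its error from the disagreement between the genotypes, so such a gene could hardly be called, and this count does not measure their agreement.

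Among the genes with the largest difference, Igfbp7, a binding protein of insulin-like growth factors, stood at 8.87 (LRRK2KO) and 6.79 (Ntg) after LPS, against 4.37 (LRRK2KO) and 5.42 (Ntg) in PBS, so that it changed by 4.50 in LRRK2KO and by 1.37 in Ntg cells. The LRRK2KO PBS array did not detect Igfbp7, so the size of its change in LRRK2KO cells and of the genotype difference is uncertain. Mmp12, the macrophage elastase, stood at 8.43 (LRRK2KO) and 7.83 (Ntg) after LPS, against 6.13 (LRRK2KO) and 8.13 (Ntg) in PBS, and Pf4, a platelet and border-macrophage chemokine, at 8.77 (LRRK2KO) and 9.9999 (Ntg) after LPS, against 6.97 (LRRK2KO) and 10.74 (Ntg) in PBS. Clec7a, the beta-glucan receptor, stood at 10.25 (LRRK2KO) and 9.32 (Ntg) after LPS, against 8.38 (LRRK2KO) and 9.72 (Ntg) in PBS. In Mmp12, Pf4 and Clec7a the PBS levels lay further apart than the LPS 6 h levels, with the LRRK2KO PBS array the lowest of the 4. Cx3cr1 changed by -1.09 in LRRK2KO and by -3.27 in Ntg cells, and its LPS 6 h levels lay further apart than its PBS levels. Ccl6, a chemokine of myeloid cells, stood at 5.89 (LRRK2KO) and 6.25 (Ntg) after LPS, against 6.19 (LRRK2KO) and 8.62 (Ntg) in PBS, where the Ntg PBS array stood apart. Fbxo2, which encodes an F-box protein that recognizes glycoproteins, stood at 5.52 (LRRK2KO) and 4.52 (Ntg) after LPS, against 5.42 (LRRK2KO) and 6.91 (Ntg) in PBS, with the Ntg PBS array again the highest. The Ntg LPS 6 h array did not detect Fbxo2. Agap1, the gene of a GTPase-activating protein for Arf GTPases, stood at 7.33 (LRRK2KO) and 5.52 (Ntg) after LPS, against 7.37 (LRRK2KO) and 7.67 (Ntg) in PBS, with the Ntg LPS 6 h array the lowest.

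In the other direction Dcn, the matrix proteoglycan decorin, stood at 4.83 (LRRK2KO) and 8.49 (Ntg) after LPS, against 4.95 (LRRK2KO) and 5.78 (Ntg) in PBS, so that the Ntg LPS 6 h array stood apart from the other 3. The LRRK2KO LPS 6 h array did not detect Dcn. Il19 changed by 3.21 in LRRK2KO and by 5.88 in Ntg cells, and Slc7a11 by 2.17 and 4.85. Pou3f1, a POU-domain factor, stood at 5.26 (LRRK2KO) and 7.67 (Ntg) after LPS, against 4.43 (LRRK2KO) and 4.40 (Ntg) in PBS, undetected in PBS. Klf4, a factor of macrophage polarization, stood at 5.55 (LRRK2KO) and 7.001 (Ntg) after LPS, against 6.02 (LRRK2KO) and 5.26 (Ntg) in PBS, and Sdc1, a cell-surface proteoglycan, at 7.14 (LRRK2KO) and 7.47 (Ntg) after LPS, against 7.42 (LRRK2KO) and 5.17 (Ntg) in PBS. The paired receptors Lilra6 and Pira2 stood at 5.77 (LRRK2KO) and 6.62 (Ntg) after LPS, against 7.34 (LRRK2KO) and 5.99 (Ntg) in PBS and at 5.002 (LRRK2KO) and 5.95 (Ntg) after LPS, against 7.02 (LRRK2KO) and 5.77 (Ntg) in PBS, with the LRRK2KO PBS array the highest in both, and they belong to a family of close copies.

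**Figure D5:**
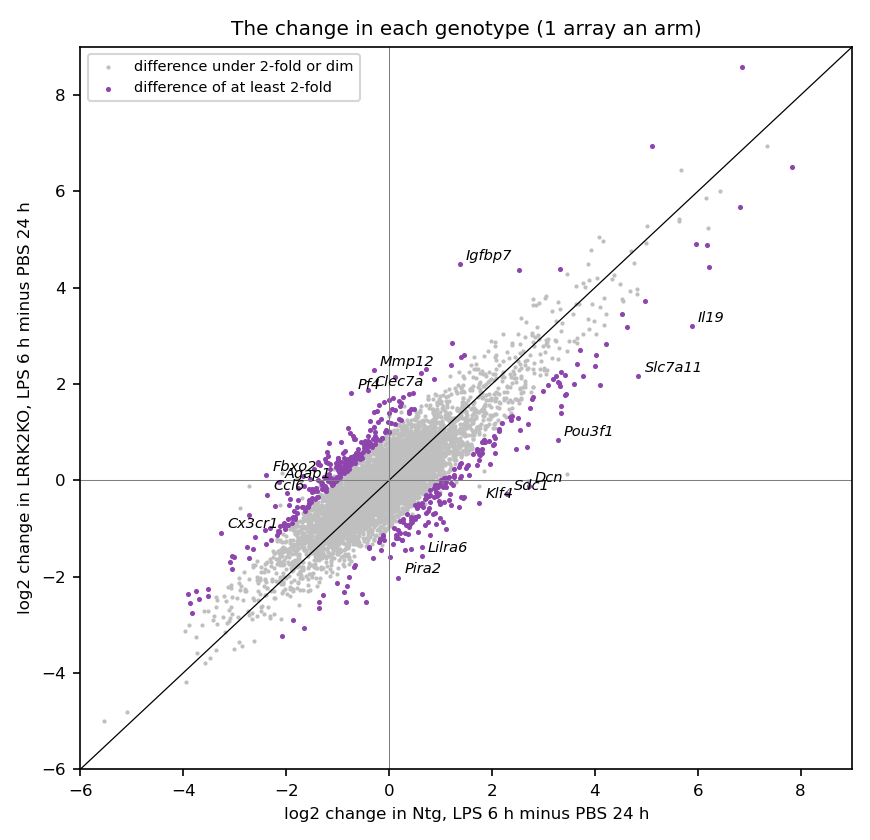
Log2 change, LPS 6 h minus PBS 24 h, in LRRK2KO cells (vertical axis) against that in Ntg cells (horizontal axis), 1 point for each of 8598 genes, from 1 array per arm and genotype. Purple points are the 442 genes whose changes differ by at least 2-fold, the largest of them named. The points follow the diagonal (r = 0.860), and Igfbp7 (4.50 and 1.37) and Dcn (-0.11 and 2.71) lie farthest from it. The LRRK2KO PBS array did not detect Igfbp7, and the LRRK2KO LPS 6 h array did not detect Dcn.

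Markers of cells other than microglia moved between the arrays too, and their part in the results was not tested. The 13 tested microglia and macrophage markers had a summed linear level of 82800 (LRRK2KO) and 70900 (Ntg) after 6 h of LPS, against 99910 (LRRK2KO) and 111100 (Ntg) in PBS, and 7 of them fell and 1 rose, or 1 fell when the Ntg LPS 6 h array was left out, 2 for the Ntg PBS array and 3 for the LRRK2KO PBS array, and 2 fell under median scaling of the detected probes. The 7 tested of 9 border macrophage markers summed to 7622 (LRRK2KO) and 10550 (Ntg) after LPS, against 9896 (LRRK2KO) and 18190 (Ntg) in PBS, with 4 of them lower, among them Cd209f and Folr2. Without the genotype term 2 of them were lower, and Folr2 lost the call. The 5 tested choroid plexus and ependyma markers summed to 699.9 (LRRK2KO) and 2743 (Ntg) after LPS, against 773.5 (LRRK2KO) and 7209 (Ntg) in PBS. The highest intensity was 7646 for Ttr and 413 for Wfdc2, the next of these markers, so the largest sum rests mainly on Ttr. Astrocyte markers, 7 tested of 12, summed to 816.8 (LRRK2KO) and 1149 (Ntg) after LPS, against 318.6 (LRRK2KO) and 356.7 (Ntg) in PBS, and Gja1 rose by 2.67 ± 0.21 while the defining markers Gjb6 and S100b were detected on 0 arrays. Oligodendrocyte markers, 8 tested, summed to 758.3 (LRRK2KO) and 883.5 (Ntg) after LPS, against 1022 (LRRK2KO) and 1205 (Ntg) in PBS, with Olig2 and Pdgfra detected on 0 arrays. The 2 tested monocyte and neutrophil markers, S100a8 and Camp, rose by 2.85 ± 0.29 and 1.88 ± 0.18, while the other 8 on the array, among them S100a9, Ccr2, Ngp, Mpo and Elane, were detected on 0 arrays. Fibroblast and pericyte markers, 3 tested, summed to 251.7 (LRRK2KO) and 595.2 (Ntg) after LPS, against 313.3 (LRRK2KO) and 508.2 (Ntg) in PBS. In such bulk samples fewer cells of a type and less RNA per cell cannot be told apart.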

How the data were processed

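RNA of 6 microglia samples was amplified to biotinylated cRNA and hybridized to Illumina beadchips of 45281 probes, per the labels' protocols, with BeadStudio named in the submitters' processing notes (version and settings not given in the sources used here). The deposited table holds an unnormalized intensity and a detection p-value per probe and array, per the file headers. The deposited series matrix holds normalized intensities of the same arrays, which by their values are on a linear scale, share their quartiles (medians 101.158 to 101.178) and rank the probes as the unnormalized table does. It served as an alternative after log2. Intensities were background-corrected and quantile-normalized with neqc (limma 3.58.1, R 4.3.3, offset 16). A gene was represented by its probe with the highest mean among those detected on at least 2 arrays, and probes with several symbols or none (18 and 10378) were left out. limma fitted genotype and arm over the 6 arrays, leaving 2 residual degrees of freedom, and p-values were adjusted by Benjamini-Hochberg over 8598 genes. A gene undetected on both arrays of its dimmer arm is given as at least N-fold, computed against the lowest detected signal of those arrays or the gene's own level where higher.

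Genes were named by rule: the 25 largest rises and falls called and at least 2-fold in both genotypes, up to 6 members per list with the largest change, the 8 largest genotype differences each way, and a few fixed genes. The members and lists were chosen with earlier results of these data known. Promoter sequences are RefSeq's (GRCm38.p6), and the CCAAT and GC boxes were added after the printed promoters were seen. On simulated data at log2 changes of 1 and 2, 90 and 99 of 100 changed genes were recovered, with 13 false calls. The simulated noise was independent between genes and few genes were changed. It held no genotype effect, no shift shared by an array and no floor, so it does not give the error rate of these data. Alternatives covered scaling, background, offset, filters, probe choice, the deposited series matrix, the genotype term, the 24 h arrays and each array left out. Figures were drawn with matplotlib 3.10.9 in Python 3.11.15. Precision is limited by having 2 arrays in each arm. The result of 1 gene list is not reported here.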

Additional observations from a re-analysis of the deposited data

Results flagged for a closer look

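In 9 of the genes named for the size of their genotype difference the 6 h change had opposite signs in LRRK2KO and Ntg cells, each from 1 array per arm, and none of these differences was tested. The change in LRRK2KO cells minus that in Ntg cells was 2.59 for Mmp12, 2.54 for Pf4, 2.49 for Fbxo2 and 2.27 for Clec7a, where LRRK2KO cells were higher and Ntg cells lower after LPS than in PBS. It was -2.83 for Dcn, -2.58 for Sdc1, -2.21 for Klf4, -2.20 for Lilra6 and -2.19 for Pira2, where the directions were the other way round. In LRRK2KO cells Dcn changed by -0.11 and Fbxo2 by 0.11, near the lowest detected signal, so their direction there is uncertain. The LRRK2KO LPS 6 h array did not detect Dcn or Pira2, and the Ntg LPS 6 h array did not detect Fbxo2. The housekeeping genes Actb and Gapdh also had opposite signs, with differences of -0.18 and 0.23, far smaller than those of the other 9.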

How the results depend on the processing

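Of 2945 recomputed changes of named genes, 2886 kept their direction and side of the threshold, 26 lost the call, 19 gained it and 14 reversed, and of 1568 recomputed list counts 1280 stayed within 1.5 times. The higher count after 6 h of LPS was 779 under scaling on all probes, an alternative chosen after seeing the data, under which 1951 genes were lower at 6 h than at 24 h. Without the genotype term 490 genes were higher and 767 lower at 6 h than at 24 h. With arrays left out in turn, an arm left with 1 array being assumed to vary like the other groups, 790 to 1233 genes were higher and 1025 to 2092 lower than in PBS, and 107 to 795 were higher and 54 to 1181 lower than at 24 h. The at least 2-fold genotype differences (LRRK2KO minus Ntg) numbered 913 higher and 74 lower under scaling on all probes, 35 and 53 without background correction, 41 and 60 from the deposited series matrix, and 85 and 99 with an offset of 50, and 154 were higher among genes detected on all 4 arrays. The cause was not tested. Under median scaling of the detected probes the change was 0.26 for Actb and 0.40 for Gapdh. With single arrays left out the change ranged from -0.16 to 0.011 for Actb, -0.23 to 0.041 for Gapdh, -0.040 to 2.64 for Dcn, -0.39 to 1.67 for Klf4, -0.091 to 2.10 for Sdc1, -1.54 to 0.60 for Lilra6, -1.95 to 0.10 for Pira2, -0.25 to 1.71 for Clec7a, -0.17 to 2.17 for Mmp12, -2.35 to 0.064 for Fbxo2 and -0.85 to 1.91 for Pf4. No analysis paired by replicate number was possible because each group holds 1 array and the groups share 1 replicate number. The genotype term of the fit already sets the arms against each other within genotype, and without it 1081 genes were higher and 1844 lower than in PBS. The slide as a block was not run, since the files used here give no slide. Levels under the lowest detected signal have no order, and 96 rises and 380 falls had a probe undetected on both arrays of the dimmer arm.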
